A study of Rattus norvegicus with 14 samples.

Results

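The comparison described here set colon that looked spared in rats with chemically induced colitis against colon of rats without colitis, over all genes of the count table. The groups compared held 8 of the 14 libraries of the series. These were 2 control libraries, from animals 216 and 217, and 6 libraries of uninflamed regions, from animals 218 to 223. The other 6 libraries came from inflamed regions of animals 218 to 223, and their levels are given for reference. They were also fitted together with the 8, so the p-values of the comparison depend on them. With all 14 libraries 27 genes passed the thresholds given below, and with the 8 libraries fitted alone 0 did. All animals were male Wistar rats, and every library held total RNA depleted of ribosomal RNA. The animals with colitis had received TNBS (2,4,6-trinitrobenzene sulfonic acid) into the colon and were killed 72 h later. Their uninflamed samples came from colon that did not border the inflamed region. The labels name the vehicle for the control rats, whereas the study's methods call them untreated. Control samples came from random sections of the removed distal colon. Neither the labels nor the study's methods state how far from the anus a section was cut, so position along the colon and treatment cannot be told apart in this comparison.

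TNBS is a hapten that binds proteins of the colon wall and provokes an immune response against them, which leaves patches of ulcerated wall beside mucosa that looks healthy. The lining of the distal colon consists of crypts, in which stem and dividing cells near the base give rise to absorptive colonocytes, mucus-secreting goblet cells and hormone-secreting enteroendocrine cells. Hox genes encode transcription factors that keep a record of position along the body axis, and the last members of each Hox cluster are active towards the hindgut. The tissue was checked against its markers. Cdx2, an intestinal transcription factor, was at 48.2 and 78.5 CPM (read counts scaled to library size and by TMM factors) in the controls and between 49.7 and 90.5 CPM in the uninflamed libraries, against 1.94 to 32.3 CPM in the inflamed ones. A list of 18 epithelial genes summed to 5295 and 9292 CPM in the controls and to 4821 to 9014 CPM in the uninflamed libraries, so the ranges overlapped. Summed levels of 16 neutrophil genes, 15 of them tested, were 37.3 and 38.6 CPM in the controls and 33.3 to 71.8 CPM in the uninflamed libraries. The inflamed regions held 423 to 2212 CPM. In these bulk samples fewer cells of a type and less RNA per cell cannot be told apart.

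The control libraries held 12013023 and 12041314 reads, and the uninflamed ones 7813797 to 13234808. The TMM factors, which correct for differences in RNA composition, were 0.866 and 0.633 in controls 216 and 217. The uninflamed library of animal 218 stood apart with a factor of 0.630, close to that of control 217. Because CPM is not divided by gene length, levels are compared only between libraries and never between genes. Nothing in the labels says more of the replicates than that they are separate animals, so the p-values measure the spread between these libraries, with only 2 of them on the control side.

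Of 26319 genes in the table, 18678 had enough reads to be tested. Uninflamed colon had 27 genes called lower than control colon (0.145% of the genes tested) and 0 called higher, at an adjusted p under 0.05 and at least 2-fold in edgeR's quasi-likelihood test. Without adjustment 681 genes were higher (3.65%) and 979 lower (5.24%) at p under 0.05, while DESeq2 called 39 higher and edgeR's exactTest 12. The median log2 difference over all genes was 0.05. In the same fit, inflamed regions had 1107 genes higher (5.93%) and 1455 lower (7.79%) than controls. Against uninflamed regions they had 1148 higher (6.15%) and 1298 lower (6.95%). The fit held no term for animal, so it treated libraries paired by animal as separate. This holds for all its inflamed minus uninflamed p-values. It also enters the uninflamed minus control p-values, through the spread estimated from all libraries.

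Agreement between the controls was required before weight was given to a gene: they had to lie within 2-fold of each other after 0.5 CPM was added, as they did for 16977 genes (90.9%), with all 6 uninflamed libraries beyond both. Of the 27 called genes, 7 met this: Retnla, Hoxd13, Hoxd10, Slc20a1, Pdp1, Agpat4 and Bmp2, all lower. Whether or not a test was passed, 962 genes (5.15%) had agreeing controls with all uninflamed libraries above them, and 1116 (5.97%) had all below. Where the controls need not agree these counts were 977 (5.23%) and 1151 (6.16%). The 7 calls rest on few libraries. All 7 were called by DESeq2 and by exactTest and 5 of 7 by limma-voom. None of the 7 was called without the uninflamed library of animal 219 or that of animal 220, with the 8 libraries fitted alone, or with library totals in place of TMM factors.

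**Figure D1:**
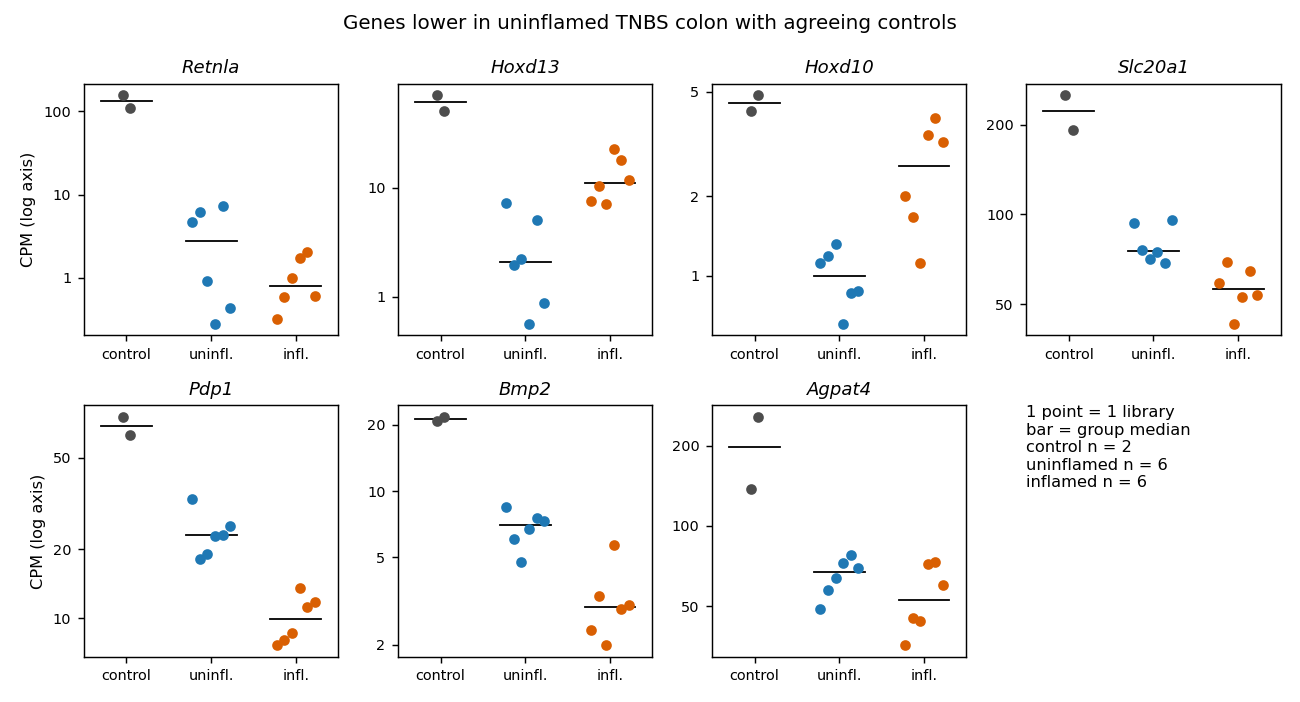
Levels (CPM, log axis) of the 7 genes called lower in uninflamed colon whose controls agreed, with 1 point a library, bars at the group medians, and 2 control, 6 uninflamed and 6 inflamed libraries. In every panel all 6 uninflamed libraries lie below both controls, and the inflamed libraries lie above the uninflamed median for Hoxd13 and Hoxd10 and below it for Pdp1 and Bmp2.

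The widest gap was in Retnla, which encodes a secreted resistin-like protein known in mice as a product of macrophages and epithelium in type 2 immunity. Its level was 157 and 111 CPM in the controls, and 4.62, 6.16, 0.904, 0.281, 7.37 and 0.436 CPM in the uninflamed libraries of animals 218 to 223. The groups were far apart, and within the uninflamed group the libraries of animals 220, 221 and 223 formed a lower set under 1 CPM. Retnla fell by 5.36 on the log2 scale (SE 0.79, adjusted p = 0.0178, edgeR quasi-likelihood), a fitted 41.1-fold difference. In inflamed regions it lay between 0.318 and 2.05 CPM, and the inflamed minus uninflamed difference was not called (−1.57, adjusted p = 0.123).

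Retnlb, the related goblet cell product that mice release against intestinal worms, was likewise lowest in the uninflamed libraries of animals 220, 221 and 223. It was at 260.0 and 126 CPM in the controls and at 6.21, 12.8, 1.40, 0.281, 15.4 and 0.174 CPM in the uninflamed libraries. All 6 lay below both controls, but the controls stood just over 2-fold apart and the difference was not called (−5.00, SE 1.26, adjusted p = 0.176). Retnlg, a family member of bone marrow and neutrophils in mice, was at 6.25 and 12.7 CPM in the controls and at 4.45 to 46.7 CPM in the uninflamed libraries, with overlap and no call (adjusted p = 0.692).

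The next gap concerned the last genes of the HoxD cluster. Hoxd13, a transcription factor of the most posterior hindgut, was at 71.4 and 50.9 CPM in the controls and at 7.33, 1.95, 2.22, 0.562, 5.06 and 0.872 CPM in the uninflamed libraries. The highest uninflamed library, that of animal 218, was still far below the lower control. Hoxd13 fell by 4.39 on the log2 scale (SE 0.62, adjusted p = 0.0159, edgeR quasi-likelihood), a fitted 21.0-fold difference. Inflamed regions of the same animals had more than the uninflamed ones, at 7.07 to 22.6 CPM (median 11.1; inflamed minus uninflamed 2.16, adjusted p = 0.00754), and still less than the controls (−2.24, adjusted p = 0.0214).

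Hoxd10, an earlier member of the cluster, showed the pattern at a low level, with 4.23 and 4.86 CPM in the controls and 1.12, 1.19, 1.32, 0.656, 0.857 and 0.872 CPM in the uninflamed libraries. The 6 values lay close together, all well under the controls, and the gene fell by 2.17 on the log2 scale (SE 0.39, adjusted p = 0.0366, edgeR quasi-likelihood). It was higher in inflamed than in uninflamed regions (1.38, adjusted p = 0.00464), and among the 27 called genes it alone was not also called lower in inflamed regions than in controls (−0.79, adjusted p = 0.185). Hoxd12, between them, had too few reads for the test: 10 and 10 reads in the controls, 3, 0, 2, 0, 2 and 1 in the uninflamed libraries, and 0, 2, 4, 2, 9 and 12 in the inflamed ones. Hoxd9, also with too few reads, did not show the pattern: 3 and 0 reads in the controls and 2, 0, 3, 1, 4 and 1 in the uninflamed libraries.

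Hoxb13, the last gene of the HoxB cluster and likewise a hindgut gene, did not follow HoxD in all animals. It was at 91.3 and 69.2 CPM in the controls and at 59.3, 88.7, 59.8, 1.03, 39.1 and 2.44 CPM in the uninflamed libraries. The libraries of animals 221 and 223 were near 0, 3 others were below both controls, and that of animal 219 lay between the controls, so no difference was called (−0.95, SE 1.20, adjusted p = 0.877). Inflamed regions also spread widely, with 61.9 CPM in animal 221 and 1.28 CPM in animal 223. Of the 4 posterior Hox genes tested, 2 were called lower (0.145% of all genes were) and the fourth, Hoxc10, was below 1 CPM in all 8 libraries. Of 10 Hox genes from earlier in the clusters, 0 were called and 1 lay below both agreeing controls (5.97% of all genes did so). This was Hoxb6, at 0.865 and 1.18 CPM against 0.0822 to 0.648 CPM, near the 0.247 to 0.478 CPM that 3 reads equal in the uninflamed libraries. The median over those 10 genes was −0.29, and 0.10 with library totals in place of TMM factors.

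The remaining 4 genes with agreeing controls were Slc20a1, Pdp1, Bmp2 and Agpat4. Slc20a1 encodes a sodium-phosphate cotransporter of the cell surface, and had the smallest SE of the 7. It was at 251 and 192 CPM in the controls and at 93.7, 75.8, 71.0, 74.9, 68.8 and 95.8 CPM in the uninflamed libraries. The groups did not overlap, the closest values being 95.8 and 192 CPM, and the gene fell by 1.47 on the log2 scale (SE 0.20, adjusted p = 0.0159, edgeR quasi-likelihood), or 2.77-fold. The inflamed libraries, at 43.0 to 69.2 CPM, lay a little lower (inflamed minus uninflamed −0.49, adjusted p = 0.0319, under 2-fold).

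Pdp1 encodes a phosphatase that switches on mitochondrial pyruvate dehydrogenase. Its levels were 75.5 and 62.9 CPM in the controls and 33.0, 18.2, 19.0, 22.9, 23.2 and 25.2 CPM in the uninflamed libraries. The groups did not overlap, and the gene fell by 1.56 on the log2 scale (SE 0.24, adjusted p = 0.0178, edgeR quasi-likelihood). Inflamed regions stepped down again, to 7.63 to 13.6 CPM, all below every uninflamed library (inflamed minus uninflamed −1.20, adjusted p = 0.000557).

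Bmp2, a secreted growth factor made towards the top of the crypts, was at 21.0 and 21.8 CPM in the controls and at 8.44, 6.05, 4.77, 6.75, 7.55 and 7.33 CPM in the uninflamed libraries. The 2 controls were nearly equal and the uninflamed libraries lay in a narrow band below them (−1.65, SE 0.29, adjusted p = 0.0366, edgeR quasi-likelihood). As with Pdp1, inflamed regions were lower still, at 1.98 to 5.67 CPM (inflamed minus uninflamed −1.07, adjusted p = 0.00409). Agpat4, an enzyme that makes phosphatidic acid for membrane lipids, was at 137 and 256 CPM in the controls and at 48.8, 57.7, 64.1, 72.9, 77.6 and 69.9 CPM in the uninflamed libraries. It fell by 1.59 on the log2 scale (SE 0.28, adjusted p = 0.0354, edgeR quasi-likelihood), but of the 7 it depended most on one control: without control 217 its log2 difference was −1.07 with an adjusted p of 0.892.

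The other 20 called genes had controls more than 2-fold apart, 19 of them more than 4-fold, and in 18 the higher control was 217. Pcmt1, a protein repair methyltransferase, was at 29.3 CPM in control 216 and 2037 CPM in control 217, and at 20.4 to 31.4 CPM (median 27.6) in the uninflamed libraries. Klhdc10 was at 35.3 and 2018 CPM in the controls against 28.4 to 40.0 CPM (median 29.9), and Tmco2 at 0.481 and 223 CPM against 0.262 to 0.756 CPM (median 0.590). For these 3 genes control 216 lay within the uninflamed range, and the calls rest on control 217. Without control 217 the log2 difference of Pcmt1 went from −5.28 to −0.14, that of Klhdc10 from −4.99 to −0.12, and that of Tmco2 from −7.63 to 0.19, each with an adjusted p of 1.

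Sult5a1, Mapk8ip3, Acox3, Plcd1 and Yars were also far higher in control 217, with 104, 428, 351, 294 and 243 CPM against 2.60, 22.0, 23.2, 33.3 and 39.5 CPM in control 216. The highest uninflamed values were 2.53, 21.0, 24.3, 26.3 and 31.2 CPM in the same order, so that for all but Acox3 every uninflamed library lay below control 216 too. For Lca5l the roles were exchanged, with 68.0 CPM in control 216, 4.20 CPM in control 217 and 3.05 to 4.69 CPM in the uninflamed libraries. Tnfsf4, which encodes OX40 ligand, a costimulatory signal to T cells, had the smallest adjusted p of all genes (0.0151, edgeR quasi-likelihood). It was at 10.2 and 42.4 CPM in the controls and at 3.19, 3.78, 2.38, 3.37, 3.26 and 3.23 CPM in the uninflamed libraries. All 6 were below even the lower control, and the log2 difference was −3.03 (SE 0.38) with both controls and −1.67 without control 217, where it was no longer called (adjusted p = 0.326). Of the 27 called genes 15 had all uninflamed libraries below both controls.

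**Figure D2:**
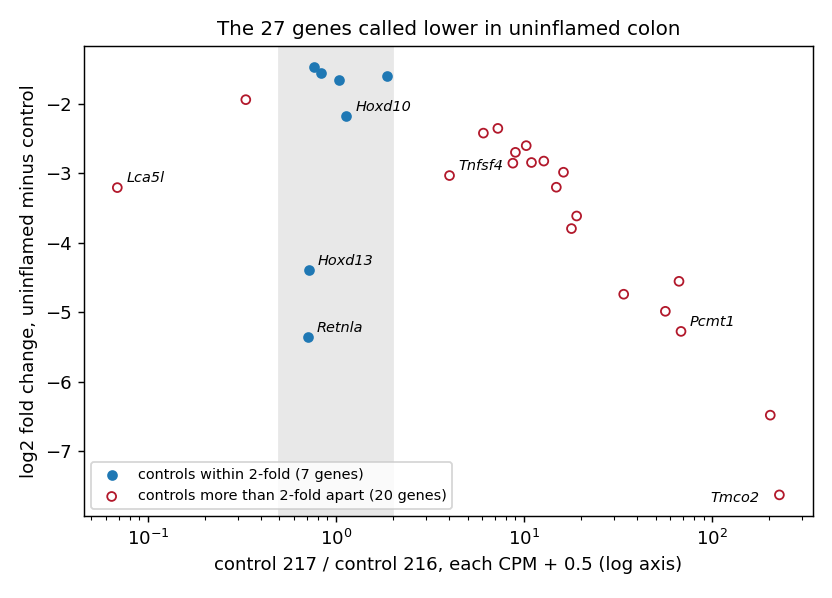
Log2 fold change (uninflamed minus control) of the 27 genes called lower, plotted against the ratio of control 217 to control 216 (CPM + 0.5, log axis), with 1 point a gene and the grey band spanning a 2-fold difference between the controls. The 7 filled points inside the band are the genes with agreeing controls, and 18 of the 20 open points lie to its right, where control 217 was the higher one.

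The uninflamed libraries were not alike, and animals 221 and 223 stood apart from the other 4 in a set of genes picked out after their values had been seen. Besides low Hoxb13, Hoxd13, Retnla and Retnlb, both had high levels of Fabp1, Cyp4f1 and B4galnt2 among the uninflamed libraries. Fabp1, a fatty acid carrier of liver and small intestine, was at 24.3 and 35.1 CPM in animals 221 and 223, at 4.03 to 6.05 CPM in the other 4, and at 0.577 and 1.18 CPM in the controls. Thus all 6 uninflamed libraries were above both controls for Fabp1 (3.93, SE 1.03, adjusted p = 0.197), without a call. Cyp4f1, a fatty acid hydroxylase, was at 77.9 and 87.4 CPM in these animals, from 0.956 to 24.4 CPM in the other 4 and at 1.06 and 2.10 CPM in the controls. B4galnt2, a glycosyltransferase of mucus sugars, was at 14.8 and 23.4 CPM against 2.71 to 5.57 CPM in the other 4. When these 2 libraries were left out, 0 genes were called by edgeR's quasi-likelihood test, with 1439 at an unadjusted p under 0.05. The log2 difference of Hoxd13 ranged from −5.05 to −3.91 over the 19 alternative settings.

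**Figure D3:**
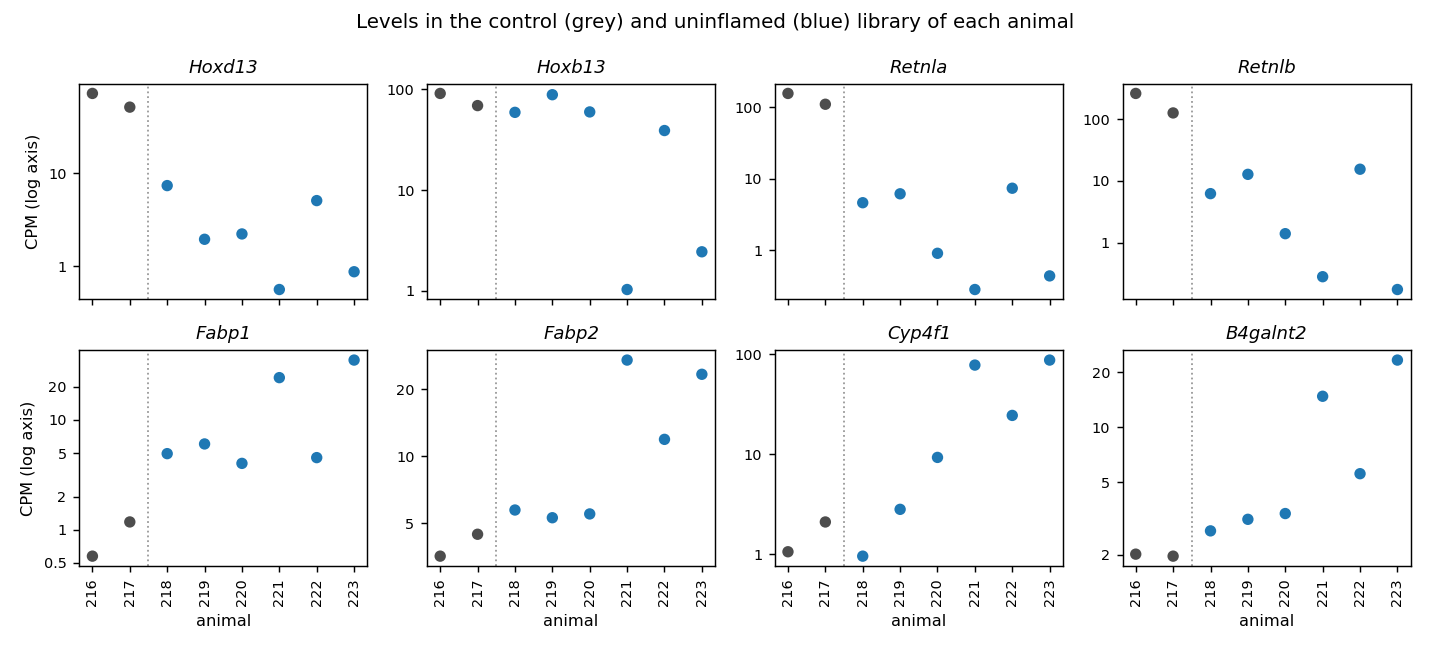
Levels (CPM, log axes) of 8 genes in the control library of animals 216 and 217 (grey) and the uninflamed library of animals 218 to 223 (blue), with 1 point a library. Animals 221 and 223 hold the lowest uninflamed values in all 4 upper panels and the highest in all 4 lower panels.

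Beyond the called genes, the 12 genes above agreeing controls with the smallest unadjusted p, and a mean of at least 1 on the log2 CPM scale, did not pass the test. Tmed3, a cargo receptor of the early secretory pathway, was at 21.7 and 19.2 CPM in the controls and 32.0 to 67.9 CPM (median 43.1) in the uninflamed libraries (1.23, SE 0.27, adjusted p = 0.107). Lman1, which carries glycoproteins out of the endoplasmic reticulum, was at 13.7 and 10.8 CPM against 17.2 to 37.6 CPM (median 28.4), with an adjusted p of 0.166. For both genes the groups did not overlap, and the inflamed medians were 44.8 and 38.9 CPM. Unc93b1, which takes nucleic-acid-sensing Toll-like receptors to endosomes, was at 10.6 and 10.1 CPM against 16.9 to 34.0 CPM (median 21.0; 1.12, adjusted p = 0.137). Siglec1, a sialic acid receptor of tissue macrophages, was at 2.21 and 2.49 CPM against 4.80 to 12.1 CPM (median 7.28; 1.72, adjusted p = 0.137).

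Egf, a growth factor for epithelium, was at 11.8 and 13.4 CPM in the controls, 22.0 to 49.7 CPM (median 30.1) in the uninflamed and 9.66 to 20.3 CPM in the inflamed libraries. The uninflamed libraries lay above all others; against the controls the difference of 1.36 was not called (adjusted p = 0.155), and the inflamed regions were lower than the uninflamed ones (−1.37, adjusted p = 0.000689). Ttc30b, an intraflagellar transport protein, and Pck2, the mitochondrial enzyme that makes phosphoenolpyruvate, also lay above both controls in all 6 libraries, with medians of 4.66 and 20.2 CPM against 1.92 and 1.44 CPM and against 9.04 and 5.38 CPM. Their adjusted p values were 0.0616 and 0.155. The other 5 were Ube2t, Gtse1, Cuta, Dpep2 and Fut4, with log2 differences from 1.00 to 1.75.

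On the lower side, the 5 genes that followed the 7 called ones were Vhl, Trpv1, Mapre3, Tesk2 and Phospho1. Vhl, which marks hypoxia-inducible factors for destruction, was at 53.7 and 60.8 CPM in the controls and 25.5, 27.4, 30.3, 28.9, 30.0 and 35.6 CPM in the uninflamed libraries. The groups were cleanly apart and the adjusted p was 0.0406, but the log2 difference of −0.95 fell short of 2-fold. Trpv1, the capsaicin receptor of sensory nerves, was at 5.38 and 5.91 CPM against 2.40 to 2.87 CPM (−1.08, SE 0.21, adjusted p = 0.059), with inflamed regions at 2.54 to 3.33 CPM.

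Genes of DNA replication and mitosis lay mostly on the higher side, although none was called. Of 44 tested, 42 had a log2 difference above 0, and the median was 0.95 against 0.05 over all genes. An unadjusted p under 0.05 (edgeR quasi-likelihood) was found for 31, against 1660 of 18678 over all genes. The genes were measured in the same libraries, so the 31 are not independent results. In all 6 libraries, 6 genes lay above both agreeing controls (5.15% of all genes did so). One library held the last count down. The summed level of the list, with 45 genes counted, was 563 and 493 CPM in the controls and 467 to 1249 CPM in the uninflamed libraries. Only the library of animal 218, the lowest, was not above both controls. Without it 30 of the 44 lay above both controls, compared with 8.42% of all genes, and 2 of all genes were called higher: Bub1b, a member of the list (1.13, adjusted p = 0.0381), and Gtse1, a gene of the G2 phase outside it (1.35, adjusted p = 0.046, edgeR quasi-likelihood). This was the uninflamed library with the lowest TMM factor, and whether that bears on its values was not tested.

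Bub1b, a checkpoint kinase of mitosis, was at 9.62 and 10.6 CPM in the controls and at 10.8, 21.1, 22.8, 25.1, 19.9 and 21.8 CPM in the uninflamed libraries. Animal 218 sat just above the controls and the other 5 well above them. Mki67, the common marker of cycling cells, was at 48.1 and 32.3 CPM in the controls and at 30.9, 60.5, 165, 107, 115 and 85.2 CPM in the uninflamed libraries (1.23, SE 0.50, adjusted p = 0.507). Cdk1 had the lowest log2 difference on the list, −1.16, because control 217 was at 74.4 CPM and control 216 at 10.00 CPM. Replication histones, whose transcripts mostly lack a poly(A) tail, had 32 of 33 genes above 0 with a median of 1.12. Only 1 of them lay above both agreeing controls (5.15% of all genes did so). Olfm4, a marker of crypt base cells in human colon, was at 1.54 and 2.63 CPM in the controls and at 3.35 to 47.8 CPM (median 10.2) in the uninflamed libraries, all above both controls, and was not called (adjusted p = 0.351).

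Macrophage genes lay mostly on the higher side. Of 17 tested, 15 had a log2 difference above 0, the median was 0.84, and 7 lay above both agreeing controls (5.15% of all genes did so), with 0 called. Csf1r, the receptor that keeps macrophages alive, was at 21.7 and 19.6 CPM in the controls and at 71.1, 47.8, 65.5, 36.6, 40.6 and 26.0 CPM in the uninflamed libraries (1.21, SE 0.39, adjusted p = 0.331). Animals 218 and 220 were highest and animal 223 close to the controls, and the scavenger receptor Cd163 and the mannose receptor Mrc1 likewise had their lowest uninflamed value in animal 223. The summed macrophage level was 265 and 314 CPM in the controls, 338 to 600.1 CPM in the uninflamed and 593 to 997 CPM in the inflamed libraries.

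Of 23 genes of leukocyte adhesion and vessel exit, 22 had a log2 difference above 0 (median 0.70), 10 lay above both agreeing controls (5.15% of all genes) and 0 were called. Itgb2, the common subunit of leukocyte integrins, was at 7.12 and 6.04 CPM in the controls and at 12.1, 15.9, 30.0, 8.53, 10.9 and 10.0 CPM in the uninflamed libraries (1.15, adjusted p = 0.494). All 6 were above both controls and below the 34.5 to 92.0 CPM of the inflamed libraries. Fibroblast and matrix genes had 17 of 18 above 0 (median 0.66) and 5 above both agreeing controls (5.15% of all genes), among them the basement membrane collagen Col4a1 at 127 and 110.0 CPM against 137 to 341 CPM. Neutrophil genes had 11 of 15 above 0 with a median of 0.27. The epithelial and neutrophil defence protein Lcn2 was at 2.02 and 1.05 CPM in the controls, 3.69 to 14 CPM in the uninflamed and 34.0 to 376 CPM in the inflamed libraries. All 6 uninflamed libraries were thus above both controls and below every inflamed one (uninflamed minus control 2.00, adjusted p = 0.526; inflamed minus uninflamed 4.73, adjusted p = 0.000141). Of 36 cytokines and chemokines, 17 were above 0 and the median was −0.01, with 0 called.

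Of 16 B and plasma cell genes tested, 13 had a log2 difference above 0 (median 0.78), 1 lay above both agreeing controls (5.15% of all genes), 1 below (5.97%) and 0 were called. The median of 0.78 rested on the uninflamed library of animal 220, and was 0.10 without it. Relative to the control mean, the list's median log2 level was 1.91 in that library and −0.26 to 0.13 in the other 5. Cr2, a complement receptor of B cells and follicular dendritic cells, was at 2.50 and 3.68 CPM in the controls and at 4.14, 10.9, 81.1, 3.19, 3.17 and 3.66 CPM in the uninflamed libraries, and reached 278 CPM in the inflamed library of animal 218. Ms4a1, which encodes a surface protein of B cells, had the same high library, that of animal 220, at 26.5 CPM against 1.41 to 3.13 CPM in the other 5 and 2.60 and 2.36 CPM in the controls. The same library also held the highest uninflamed values of Cxcr4, Selplg, Itgb2 and Chi3l1.

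Of 18 goblet cell genes, 11 had a log2 difference above 0 (median 0.40), 4 lay above both agreeing controls (5.15% of all genes), 4 below both (5.97%), and 0 were called. Muc2, the gel-forming mucin, was at 475 and 479 CPM in the controls and at 565, 1376, 2635, 1983, 2533 and 1203 CPM in the uninflamed libraries. All 6 were higher than the controls, animal 218 only slightly, and the difference was not called (1.85, SE 1.04, adjusted p = 0.655). Spink4, a peptide co-secreted with mucus, was at 3.08 and 2.10 CPM against 10.2 to 144 CPM (median 74.4; 4.79, SE 1.23, adjusted p = 0.191), and Zg16, a lectin of the mucus layer, at 148 and 163 CPM against 251 to 692 CPM (median 374; 1.41, adjusted p = 0.752). Below both controls lay the mucus proteins Fcgbp (2264 and 2283 CPM against 568 to 1604 CPM), Clca1 (2717 and 2418 CPM against 949 to 2216 CPM) and Tff3 (359 and 302 CPM against 128 to 239 CPM). The list thus had members on both sides of the controls. In inflamed regions Muc2, Zg16, Spink4, Fcgbp and Clca1 were all lower than in uninflamed ones, with adjusted p values from 0.00231 to 0.00754.

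Enteroendocrine genes had 10 of 13 above 0 with a median of 0.71, 3 above both agreeing controls (5.15% of all genes) and 0 called. Gcg, the precursor of glucagon-like peptides of colonic L cells, was at 6.25 and 4.73 CPM in the controls and at 17.5, 38.3, 44.4, 52.6, 45.7 and 36.2 CPM in the uninflamed libraries. Every uninflamed library was above both controls, the lowest again that of animal 218 (2.83, SE 0.85, adjusted p = 0.302), and inflamed regions were back at 0.744 to 15.4 CPM. Chgb, a granule protein, was at 12.1 and 10.5 CPM against 14.8 to 37.4 CPM (median 26.1).

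Absorptive transport had the most genes below agreeing controls of the lists described. Of 30 tested, 7 lay below both agreeing controls (5.97% of all genes did so) and 3 above (5.15%). Of the 30, 10 had an unadjusted p under 0.05 (edgeR quasi-likelihood), against 1660 of 18678 over all genes, and 0 were called. The median of −0.26 became 0.14 when library totals replaced TMM factors. Scnn1a, a subunit of the epithelial sodium channel that takes up sodium under aldosterone, was at 45.2 and 35.7 CPM in the controls and 18.3, 17.5, 17.4, 13.5, 23.6 and 20.5 CPM in the uninflamed libraries (−1.13, SE 0.26, adjusted p = 0.135). The values were tightly grouped under both controls. S100g, a calcium carrier, was at 142 and 171 CPM against 1.56 to 37.9 CPM (median 17.5), and Aqp8, a water channel of surface colonocytes, at 109.6 and 199 CPM against 6.21 to 42.3 CPM (median 27.5).

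Further members below both controls were Trpm6, a magnesium channel, at 263 and 265 CPM against 78.3 to 174 CPM, and Slc16a1, a transporter of short-chain fatty acids, at 396 and 387 CPM against 132 to 304 CPM. Atp12a, the colonic proton-potassium pump, had controls over 2-fold apart, at 972 and 454 CPM, and uninflamed libraries at 23.9 to 162 CPM (−3.05, SE 0.66, adjusted p = 0.111). The receptor for aldosterone, Nr3c2, was at 1151 and 880.2 CPM against 209 to 623 CPM (−1.18, adjusted p = 0.447). Its target Sgk1, a kinase that keeps sodium channels at the surface, was at 215 and 317 CPM against 69.1 to 119.7 CPM in 5 libraries, while animal 223 lay between the controls at 259.9 CPM. Of the 3 members above both agreeing controls, the chloride channel Cftr was at 66.9 and 71.7 CPM against 78.2 to 236 CPM (median 153; 1.23, adjusted p = 0.519), and the chloride importer Slc12a2 at 230.1 and 205 CPM against 415 to 736 CPM (median 477; 1.26, adjusted p = 0.565). All of these transport genes were lower in inflamed than in uninflamed regions (adjusted p from 0.000389 to 0.00572).

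Tight junction genes had 5 of 19 above 0 with a median of −0.34, or 0.03 with library totals, and 4 below both agreeing controls (5.97% of all genes), among them Ocln at 152 and 161 CPM against 88.4 to 118 CPM and Tjp1 at 152 and 121 CPM against 78.8 to 108 CPM. Cldn15, which forms sodium-permeable pores, went the other way, at 4.33 and 4.59 CPM against 4.62 to 25.0 CPM (median 14.1). No tight junction gene was called. Epithelial identity genes had 2 of 18 below both agreeing controls (5.97% of all genes) and 0 called. Hnf4a, at 148 and 115 CPM against 62.1 to 96.4 CPM, was one of those below. The median of this list was −0.15 and became 0.21 with library totals.

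**Figure D4:**
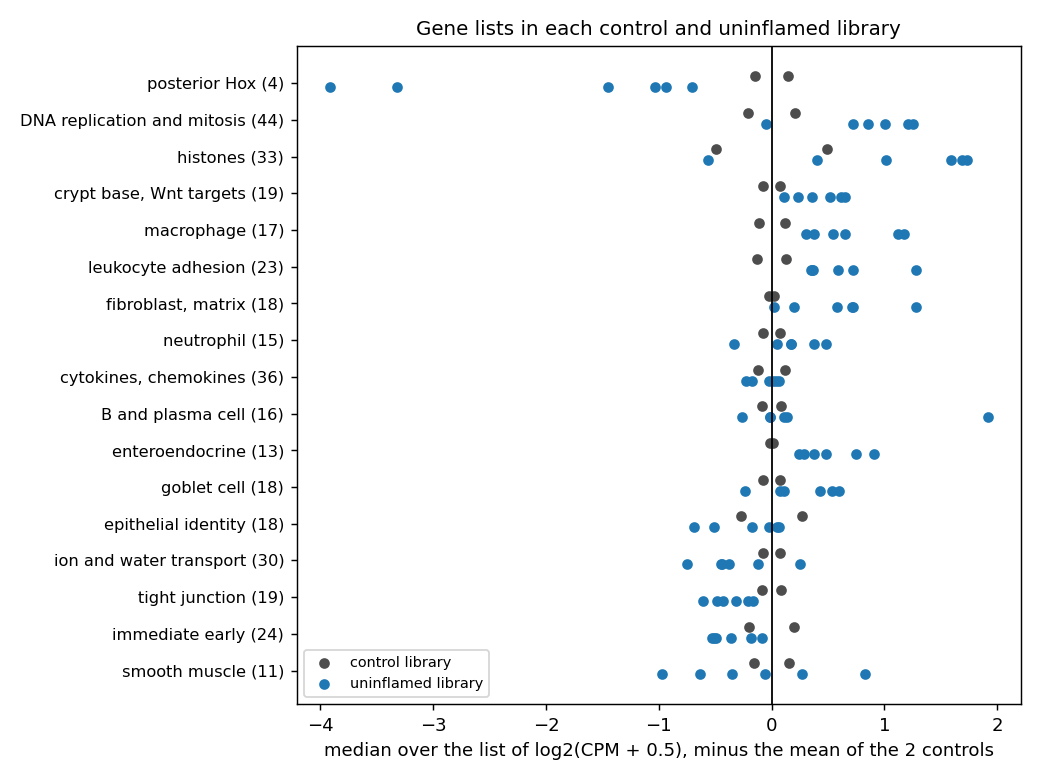
Median over each gene list of log2(CPM + 0.5) minus the mean of the 2 controls, for 17 lists with the number of genes tested in parentheses, with 1 point a library. Posterior Hox and tight junction genes lie below both controls in all 6 uninflamed libraries. Macrophage, adhesion, enteroendocrine and crypt base genes lie above both. In DNA replication and mitosis and in histones the uninflamed library of animal 218 is the lowest. In histones that of animal 219 also lies below control 216.

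Fucosyltransferases and mucin glycosyltransferases had 18 of 22 genes above 0 (10302 of 18678 over all genes) with a median of 0.41, 4 above both agreeing controls (5.15% of all genes) and 0 called. Fut4 was at 4.81 and 2.89 CPM in the controls and 7.65, 9.08, 9.62, 12.1, 9.69 and 9.68 CPM in the uninflamed libraries. The 6 values were close together and above both controls (1.31, SE 0.31, adjusted p = 0.149), and inflamed regions were lower, at 2.62 to 5.20 CPM (−1.45, adjusted p = 0.000342). Fut9 was at 73.9 and 113 CPM against 90.7 to 285 CPM with overlap (1.05, adjusted p = 0.582), and Fut1 and Fut2 had log2 differences of 0.25 and 0.39 with adjusted p values of 0.963 and 0.929.

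Pattern recognition receptors had 19 of 26 genes above 0 with a median of 0.31, 4 above both agreeing controls (5.15% of all genes), 1 below (5.97%) and 0 called. A single gene below is no more than that share, and it was Naip5, a sensor of bacterial flagellin in mice, at 188 and 177 CPM against 39.9 to 81.0 CPM (−1.49, SE 0.30, adjusted p = 0.0616). Tlr7, a receptor for single-stranded RNA, was at 3.17 and 5.25 CPM against 5.50 to 14 CPM (1.17, adjusted p = 0.354). Nlrp6, an inflammasome sensor of the colonic epithelium, had 2 entries on chromosome 1 of Rnor_5.0. The entry at 220611579 to 220617711 was at 37.2 and 29.5 CPM in the controls and 20.9, 47.2, 35.4, 68.4, 49.6 and 114 CPM in the uninflamed libraries. The entry at 220602487 to 220608414 was at 4.33 and 13.4 CPM against 7.33 to 26.7 CPM. Both overlapped the controls, neither was called (0.75, adjusted p = 0.855, and 1.01, adjusted p = 0.663), and reads of near-identical copies may be split between them.

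Regulatory lists had members on the lower side. Of 24 immediate early genes, 4 were above 0, the median was −0.43 and 3 lay below both agreeing controls (5.97% of all genes), with 0 called, and the median was −0.09 with library totals. Jund was at 46.4 and 44.4 CPM against 23.0 to 29.6 CPM in 5 libraries and 40.7 CPM in that of animal 223. Klf4, a factor of differentiated surface cells, was at 193 and 116 CPM against 46.5 to 90.9 CPM. Of 26 NF-κB genes 12 were above 0, 0 were called, and 4 lay below both agreeing controls (5.97% of all genes), Nfkbiz among them at 48.7 and 37.3 CPM against 16.7 to 32.8 CPM, whereas inflamed regions held 56.4 to 156 CPM (inflamed minus uninflamed 2.22, adjusted p = 0.000108). The NF-κB median was −0.16, or 0.19 with library totals.

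Of 18 clock genes 8 were above 0 and the median was −0.02, or 0.29 with library totals, and 0 were called. The 3 below both agreeing controls (5.97% of all genes) were the activators Arntl (84.5 and 88.9 CPM against 40.2 to 60.0 CPM) and Npas2 (138 and 159 CPM against 41.9 to 102 CPM) and the output gene Hlf. The hour at which animals were killed is not stated, and its part in these values was not tested. Aldh1a1, which makes retinoic acid, was at 83.7 and 72.2 CPM in the controls and 39.0, 15.6, 11.5, 24.6, 38.1 and 26.2 CPM in the uninflamed libraries (−1.60, SE 0.34, adjusted p = 0.097), and was lower still in inflamed regions (−1.29, adjusted p = 0.00306). Gata2, a factor of mast cells and other blood lineages, was at 5.48 and 3.15 CPM against 1.03 to 1.97 CPM (−1.50, adjusted p = 0.059), while Cpa3, a mast cell protease, overlapped at 8.85 and 11.8 CPM against 7.07 to 14.3 CPM. Among 50 nuclear-encoded respiratory chain subunits 47 were above 0 with a median of 0.22, 0 lay beyond both agreeing controls in either direction, and the median without control 217 was −0.12.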

How the data were processed

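Total RNA was depleted of ribosomal RNA and sequenced on a SOLiD 5500xl instrument. The authors used CLC Genomics Workbench 7.5.1 to map reads to Rnor_5.0 (Ensembl release 77), removed ribosomal reads, and deposited 1 table of mapped read counts per gene. Reads could match several places, so near-identical copies are uncertain. The deposited counts were tested here with edgeR 4.0.16 (quasi-likelihood, robust, TMM factors, filterByExpr with a minimum count of 10, R 4.3.3), all 14 libraries in 1 fit with 3 groups. CPM are TMM-scaled, log2 values have a prior count of 0.125, and p-values are Benjamini-Hochberg adjusted over 18678 genes. The fit was also run on simulated counts with 1 dispersion per gene for all 3 groups. No control library was made to differ from the other there, so that run does not bear on calls that rest on 1 control.

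The members and the gene lists were chosen with earlier results of these data known. Genes named are those called with agreeing controls, the 12 per direction beyond agreeing controls with the smallest p, the first 10 called ones whose controls differ, up to 4 members per list by p, and 5 genes the study names. Other list members, and the genes that set animals 221 and 223 apart, were chosen after their values were seen. A count of 3 reads equals 0.288 or 0.394 CPM in the controls and 0.247 to 0.478 CPM in the uninflamed libraries. DESeq2 1.42.0, limma 3.58.1 (voom), other scalings, filters and left-out libraries were alternatives.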

Additional observations from a re-analysis of the deposited data

Results flagged for a closer look

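In groups of 6, a library was singled out if its gap to its nearest neighbour was too large a share of the group's range by Dixon's criterion. With normally distributed values chance does so in about 1 in 20 groups. For genes the criterion was applied to CPM without a log scale, where that rate need not hold. A library was singled out for 17 of 122 genes looked at, some of them chosen after their values were seen, and for 1 of 45 lists. The uninflamed library of animal 220 stood above the other 5 for 8 of them: Cr2 (81.1 CPM), Ms4a1 (26.5), Cxcr4 (9.04), Selplg (5.75), Itgb2 (30.0), Unc93b1 (34.0), Chi3l1 (30.6) and Olfm4 (47.8). The list of B and plasma cell genes had a median of 1.91 above the controls on the log2 scale in that library. Animal 218 was low for Bub1b (10.8 CPM) and Gtse1 (3.98 CPM) and high for Hlf (7.33 CPM). Animal 223 was high for Sgk1 (259.9 CPM), Jund (40.7 CPM) and Cmpk2, an interferon-induced gene (17.4 CPM). Single high values were Selp in animal 221 (57.6 CPM), Lcn2 in animal 219 (14 CPM) and B3gnt6, which builds mucin sugars, in animal 222 (7.89 CPM).

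The difference from controls was not the same in uninflamed and inflamed regions for 4 of the 7 called genes with agreeing controls, by edgeR's test of inflamed minus uninflamed at 2-fold or more: Hoxd13 (2.16) and Hoxd10 (1.38) were higher in inflamed regions, Bmp2 (−1.07) and Pdp1 (−1.20) lower.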

How the results depend on the processing

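With 2 controls the number of calls moved widely. The 27 genes called lower became 113 with exactTest, 112 with DESeq2, 6 with limma-voom and 0 with the 8 libraries alone or library totals alone. The 0 called higher became 12 with exactTest and 39 with DESeq2. The 7 with agreeing controls became 35 lower with 10 higher (exactTest), 43 lower with 34 higher (DESeq2), and 0 lower with the 8 libraries alone or library totals alone. Each gene called by the quasi-likelihood test was also called by exactTest and DESeq2 (27 shared). Library totals alone moved the median of all genes to 0.43 and the genes beyond agreeing controls to 178 lower and 1575 higher. Leaving out 1 library gave 0 to 120 lower and 0 to 2 higher calls, 0 to 9 lower and 0 to 2 higher with agreeing controls, and 1196 to 1594 lower and 1115 to 1583 higher beyond agreeing controls. The lowest counts came without the uninflamed library of animal 220 (0 lower) or 219 (1), the highest without control 216 (120). Without the uninflamed libraries of animals 221 and 223, chosen after seeing the data, 0 genes were called, 0 with agreeing controls, and 1685 lay above agreeing controls. Without control 217 and the uninflamed library of animal 218, also chosen after seeing the data, 14 were called lower. Tmco2 ranged from −8.63 to 0.19 when 1 library was left out, changing sign without control 217 (0.19) and without control 217 and animal 218 (0.28). Agreement between controls could not be judged with 1 control. A fixed replicate block could not be fitted for uninflamed minus control because control animals are not those of the uninflamed regions. Limma-voom with animal as a random replicate block (within-animal correlation 0.0284) called 6 lower, as without it. Over 2313 values of single genes under the alternatives, 2303 kept their direction. A call (adjusted p under 0.05 and at least 2-fold) was lost in 173 and gained in 52. Only genes called in the main fit can lose a call, and most genes looked at were not called. The 173 losses are thus a far larger share of the values that could lose a call than of the 2313.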
